A study of Mus musculus with 4 samples.

Results

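RNA levels of 10 genes that move lipid between brain cells were followed in bulk RNA-seq libraries of sorted corpus callosum cells. The genes were taken as a fixed list: the apolipoproteins Apoe, Apoc1, Apoc2, Apoc4 and Apod, the lipid-binding chaperone Clu, the lipid exporters Abca1 and Abcg1, the lipase Lpl and the transfer protein Pltp. All 10 were found by symbol among the 52636 genes of the deposited files, and 9 of them reached the level needed for a test. The corpus callosum is the large white matter tract of the forebrain. All 4 libraries came from Mertk-knockout mice (label Mertk_KO) that had received 0.2% cuprizone chow for 4 weeks, a copper chelator that kills myelin-forming oligodendrocytes. Mertk encodes a receptor with which phagocytes take up dying cells. Cells were sorted into dying, AnnexinV-positive cells (2 libraries) and living, AnnexinV-negative cells (2 libraries), since annexin V binds a lipid that dying cells expose. The labels name no age or strain and do not say that replicate libraries stem from different animals. The p-values therefore measure only the spread among these libraries, which may be technical.

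Glia exchange cholesterol and phospholipid through lipoprotein particles. A cell that has taken up myelin debris can hand its cholesterol to ABCA1 and ABCG1 in the membrane, which load it onto apolipoproteins such as APOE, while lipoprotein lipase cuts triglycerides of such particles and phospholipid transfer protein remodels them. Microglia and astrocytes are the main makers of APOE in the brain, and many of these genes are known targets of the liver X receptors (LXR), nuclear receptors that sense oxidised cholesterol.

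The values are RPKM, that is reads per kb of exon scaled to a total of each library. Depth recovered from the steps between low values was about 67.5 and 60.1 M reads in genes in the AnnexinV-positive and 50.5 and 43.3 M in the AnnexinV-negative libraries. The totals that the scale implies were larger, so that reads in genes made up 68.2% and 69.9% of them in AnnexinV-positive and 42.1% and 44.6% in AnnexinV-negative libraries, and this difference goes in the direction of the general shift of RPKM. Mertk itself was read at an RPKM of 62.6 and 53.6 in AnnexinV-positive and 18.8 and 29.9 in AnnexinV-negative libraries. Without a wild-type library, and without values per exon, these levels do not check the knockout. The sorted cells carried RNA of microglia above all. The summed RPKM of 14 homeostatic microglia markers was 5577 to 5609 in AnnexinV-positive and 2182 to 2678 in AnnexinV-negative libraries, and that of 15 mature oligodendrocyte markers was 87.9 to 103 and 631 to 1122. In bulk libraries, fewer cells of a type and less RNA per cell cannot be told apart.

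Upstream sequence is shown for 4 of the genes with a window at hand. These are Apoe, the most abundant of the list, its neighbour Apoc4, the exporter Abca1 and Apod. The window of Abca1 holds the longer motif searched, and Apod had the lowest fold change of the list. Each sequence is the 250 bases before the start of the gene in RefSeq (GRCm38.p6), 5′ to 3′ on the strand of the gene, here the minus strand. Capitals mark letters that match an LXR-type half-site, AGGTCA, or a direct repeat of loosened half-sites with 4 bases between them, NGGTNANNNNNGGTCA, on either strand; a direct repeat with a full second half-site would also hold the half-site.
Apoe, chr7:19699189-19699438: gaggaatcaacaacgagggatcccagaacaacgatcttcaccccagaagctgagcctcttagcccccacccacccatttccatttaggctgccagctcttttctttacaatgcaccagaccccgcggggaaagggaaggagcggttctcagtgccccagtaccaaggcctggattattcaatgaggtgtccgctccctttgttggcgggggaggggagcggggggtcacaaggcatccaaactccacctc
Apoc4, chr7:19681461-19681710: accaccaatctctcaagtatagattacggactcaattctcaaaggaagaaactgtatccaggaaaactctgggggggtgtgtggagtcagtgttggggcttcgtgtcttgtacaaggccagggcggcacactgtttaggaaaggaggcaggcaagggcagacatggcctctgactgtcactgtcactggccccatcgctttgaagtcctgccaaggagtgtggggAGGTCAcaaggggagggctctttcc
Abca1, chr4:53159896-53160145: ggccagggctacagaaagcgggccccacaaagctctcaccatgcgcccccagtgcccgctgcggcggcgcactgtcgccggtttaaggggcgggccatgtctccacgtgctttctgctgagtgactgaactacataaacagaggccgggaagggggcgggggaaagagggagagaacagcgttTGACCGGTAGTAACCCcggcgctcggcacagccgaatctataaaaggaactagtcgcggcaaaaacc
Apod, chr16:31314809-31315058: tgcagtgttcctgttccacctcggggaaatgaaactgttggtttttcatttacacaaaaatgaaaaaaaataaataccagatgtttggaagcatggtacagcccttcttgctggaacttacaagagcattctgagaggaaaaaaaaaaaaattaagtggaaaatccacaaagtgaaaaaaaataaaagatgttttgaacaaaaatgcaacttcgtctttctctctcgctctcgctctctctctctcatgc

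The direct repeat was found in 58 of 32851 such windows (0.177%), and among the list in Abca1 alone, where it begins 67 bases before the start and reads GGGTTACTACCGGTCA on the opposite strand. The pattern was chosen with the Abca1 window in view, so the match is a description of that window. The half-site stood in 14.0% of all windows. It was present upstream of Apoc4 and of Apoc2, and in no window shown for Apoe, Abca1 or Apod. Windows were at hand for 6 of the 10 genes (Apoe with 3 starts). That of Pltp, not shown, held neither the direct repeat nor the half-site. A match shows letters, not a bound receptor, and a window without one says nothing about the receptor.

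The comparison of AnnexinV-positive with AnnexinV-negative libraries asks how dying and living cells of the lesion differ. On the deposited scale 6 of the 9 tested genes rose in AnnexinV-positive libraries (Apoe, Apoc1, Apoc4, Abca1, Abcg1 and Lpl), 2 fell (Apod and Pltp) and Clu did not pass the test (limma, Benjamini-Hochberg adjusted p under 0.05 over 10927 genes). Of all genes tested, 40.0% were called, 30.8% higher and 9.26% lower. The median log2 fold change was 0.99 over the 9 genes and 0.45 over all genes tested, so the deposited scale carries a general shift upward. On a TPM scale, with every library summing to the same total, the medians were 0.21 and -0.31. On that scale 2 of the 9 rose (Apoe and Apoc1, against 1.04% of all genes called higher) and 3 fell (Apod, Pltp and Clu, against 19.3% called lower). With libraries centred on the homeostatic microglia markers the medians were -0.19 and -0.73, with 0 of the 9 higher by limma (0.119% of all genes, and also 0 of the 9 at an unadjusted p under 0.05) and 3 lower (Apod, Pltp and Clu, against 50.7%). The falls of Apod and Pltp thus held on each of these 3 scales, and the rises of Apoe and Apoc1 on the deposited and TPM scales. The groups did not overlap, with AnnexinV-positive higher, for 6 of the 9 genes on the deposited scale (60.9% of all genes), for 4 on the TPM scale (12.2%) and for 3 on the microglia-centred scale (2.32%). With AnnexinV-positive lower they did not overlap for 2 (14.9% of all genes), 3 (52.1%) and 4 (76.7%).

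**Figure D1:**
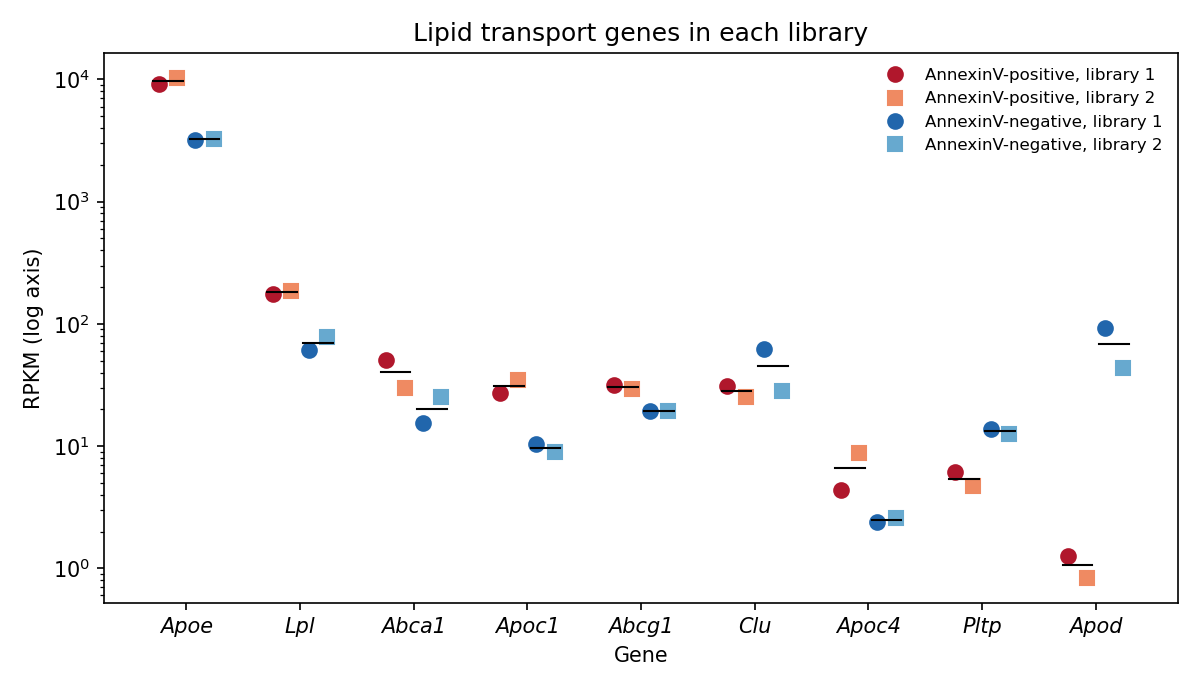
RPKM of 9 genes (log axis) in each library, with AnnexinV-positive libraries in red tones and AnnexinV-negative in blue tones; black bars are group means of 2 libraries. Apoe lies near 9231 and 10268 in AnnexinV-positive libraries, and Apod drops from 92.5 and 43.6 in AnnexinV-negative to 1.27 and 0.840 in AnnexinV-positive libraries. Apoc2, at or near 0 in each library, is not drawn.

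**Figure D2:**
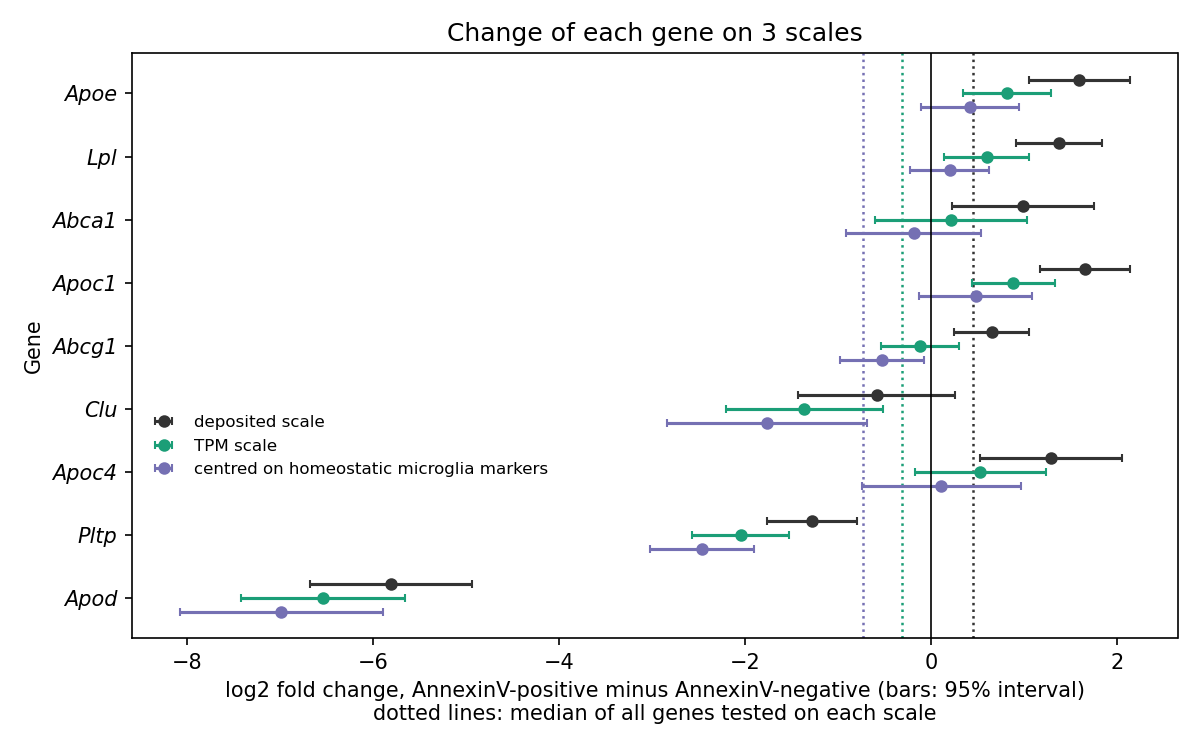
Log2 fold change of 9 genes, AnnexinV-positive minus AnnexinV-negative, on the deposited, TPM and microglia-centred scales, with 95% intervals from limma; dotted lines mark the median of all 10927 genes tested on each scale. Apod and Pltp lie below 0 on the 3 scales, while Abcg1 moves from 0.65 to -0.12 and -0.53.

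Apoe encodes the main apolipoprotein of the brain. It was the gene with the highest RPKM of all in 3 of the 4 libraries and the second in AnnexinV-negative library 2, where the protease gene Ctsd was higher. Its RPKM was 9231 and 10268 in AnnexinV-positive and 3223 and 3235 in AnnexinV-negative libraries. Both AnnexinV-positive libraries were high and the groups did not overlap. The mean was 9750 ± 734 against 3229 ± 8.65 (SD, n = 2 each), a ratio of 3.02. On the deposited log2 scale Apoe rose by 1.59 (SE 0.23, limma adjusted p 0.00376). Apoe alone held 4.61% and 4.72% of the summed RPKM in AnnexinV-positive libraries and 2.62% and 2.68% in AnnexinV-negative libraries. That difference in share corresponds to a log2 fold change of 0.81 on the TPM scale (limma adjusted p 0.0288). Set against the microglia markers of the same library, the log2 difference was 5.52 and 5.71 in AnnexinV-positive and 5.32 and 5.08 in AnnexinV-negative libraries. The groups did not overlap there either, but the change of 0.42 did not pass (SE 0.21, limma adjusted p 0.148, 95% interval -0.11 to 0.94). The other genes without overlap in this direction on that scale were Apoc1 and Lpl. Border macrophages also make Apoe. Of their 8 markers 3 were tested and 3 rose on the deposited scale, against 30.8% of all genes. On the TPM scale 0 were higher by limma, against 1.04% of all genes, and 1 at an unadjusted p under 0.05. The markers summed to 17.6 and 17.6 against 6.94 and 5.64 RPKM. Lyve1 and Cd163 stayed under 1 RPKM in each library. Mrc1, Cbr2 and F13a1 reached 1 RPKM in AnnexinV-positive library 1 only, so they were not tested. Each was higher in both AnnexinV-positive libraries than in either AnnexinV-negative library. The part of border macrophages in the level of Apoe was not tested.

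Apoc1, Apoc4 and Apoc2 lie downstream of Apoe on chromosome 7, all on the minus strand, within 27.6 kb (Apoe 19696109 to 19699188, Apoc1 19689481 to 19692660, Apoc4 19678083 to 19681479 and Apoc2 19671579 to 19677941, GRCm38). They encode small apolipoproteins that ride on lipoproteins. APOC1 hinders lipid uptake and exchange, and APOC2 is the cofactor that lipoprotein lipase needs. The RPKM of Apoc1 was 27.0 and 34.6 in AnnexinV-positive and 10.5 and 8.87 in AnnexinV-negative libraries, with no overlap. It rose by 1.65 (SE 0.20, limma adjusted p 0.00240) on the deposited scale and by 0.88 (limma adjusted p 0.0172) on the TPM scale, and stood at 0.48 (limma adjusted p 0.150) when centred on microglia markers. Apoc4 was at 4.38 and 8.77 against 2.40 and 2.57 RPKM. The groups did not overlap, but the AnnexinV-positive libraries lay far apart, with a log2 difference of -0.99 for library 1 minus library 2. Its change of 1.29 (SE 0.32, limma adjusted p 0.0207) passed on the deposited scale, and without AnnexinV-positive library 2 it was 0.79 (limma adjusted p 0.106). On the TPM scale it was 0.53 (limma adjusted p 0.244).

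Apoc2 was listed at 0 in 3 libraries and at 0.0102 RPKM, worth 1 read, in AnnexinV-negative library 1. A count of 0 allows up to 3 reads for counting error alone. Taken over all 813 exon bases, that is 0.0373 to 0.0429 RPKM in the 3 libraries. If fewer bases were counted, the limit would be higher. Of its 813 exon bases, 646 (79.5%) are also exons of Gm44805, a gene model on the same strand that joins exons of Apoc4 and Apoc2. Gm44805, whose 765 exon bases are all shared with these genes, was listed at 0 in each of the 4 libraries. How the counting treated shared bases is not given in the sources used here, so the value cannot be read as absence of Apoc2 RNA, and no change is given for it. Apoc4 shares 119 of its 2537 exon bases with the same model.

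**Figure D3:**
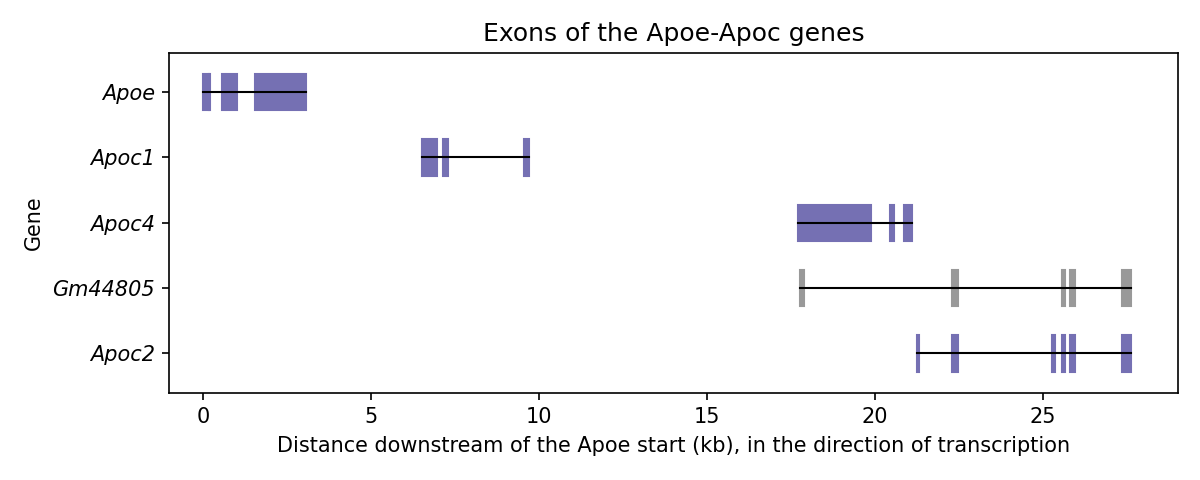
Exons (boxes) of Apoe, Apoc1, Apoc4, Apoc2 and the joining model Gm44805, by distance in kb from the start of Apoe in the direction of transcription. The exons of Gm44805 (grey) fall on those of Apoc4 and Apoc2, whose shared bases number 119 and 646.

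Abca1 and Abcg1 encode transporters that export cholesterol and phospholipid, ABCA1 to lipid-poor apolipoproteins and ABCG1 to particles already formed. Abca1 (chromosome 4, 53030787 to 53159895, minus strand) was at an RPKM of 50.9 and 30.1 in AnnexinV-positive and 15.4 and 25.1 in AnnexinV-negative libraries. The groups did not overlap, although AnnexinV-positive library 2 and AnnexinV-negative library 2 lay close together. Abca1 rose by 0.99 on the deposited log2 scale (SE 0.32, limma adjusted p 0.0471), close to the threshold, and the direction turned on the microglia-centred scale. The change was 0.61 without AnnexinV-positive library 1 (limma adjusted p 0.200) and 0.64 without AnnexinV-negative library 1 (limma adjusted p 0.120). On the TPM scale it was 0.21 (limma adjusted p 0.682), and it was -0.19 when centred on microglia markers (limma adjusted p 0.613).

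Abcg1 (chromosome 17, 31057675 to 31117988, plus strand) varied far less between replicates, with 31.8 and 29.3 against 19.4 and 19.4 RPKM. It rose by 0.65 (SE 0.17, limma adjusted p 0.0236) on the deposited scale but stood at -0.12 (limma adjusted p 0.642) on the TPM scale and at -0.53 (limma adjusted p 0.0556) when centred on microglia markers. Leaving out either AnnexinV-positive library also ended the call, at 0.59 and 0.71 (limma adjusted p 0.150 and 0.108). Its share of all reads in genes was 0.0340% and 0.0307% in AnnexinV-positive and 0.0336% and 0.0318% in AnnexinV-negative libraries, which overlap. Per 1000 RPKM of Apoe there were 3.44 and 2.86 RPKM of Abcg1 in AnnexinV-positive and 6.01 and 6.01 in AnnexinV-negative libraries. The ratio to Apoe was lower without overlap in this way for 91.2% of all other genes tested.

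Lpl encodes lipoprotein lipase, which microglia make at high levels when they handle lipid. Lpl (chromosome 8, 68880491 to 68907448, plus strand) was the second most abundant gene of the list in both groups by mean RPKM. It was read at 177 and 185 RPKM in AnnexinV-positive and 61.5 and 78.8 in AnnexinV-negative libraries, without overlap. It rose by 1.38 (SE 0.20, limma adjusted p 0.00364) on the deposited scale, and stood at 0.60 (limma adjusted p 0.0707) on the TPM scale and 0.20 (limma adjusted p 0.366) when centred on microglia markers. Its ratio to Apoe overlapped between groups, at 19.2 and 18.0 per 1000 against 19.1 and 24.4.

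Pltp, the phospholipid transfer protein, went the other way. Its RPKM was 6.10 and 4.70 in AnnexinV-positive and 13.8 and 12.6 in AnnexinV-negative libraries, and both living-cell libraries were high. The log2 fold change of Pltp was -1.28 (SE 0.20, limma adjusted p 0.00498) on the deposited, -2.05 (limma adjusted p 7.86e-04) on the TPM and -2.46 (limma adjusted p 0.00129) on the microglia-centred scale. Pltp (chromosome 2, 164839518 to 164857711, minus strand) shares 495 of its 2562 exon bases with Ctsa on the opposite strand, and the library kit did not keep strand. Ctsa, a lysosomal protein gene, was at 322 and 343 against 119 and 152 RPKM and rose by 1.30 (limma adjusted p 0.00461) on the deposited scale. The direction of Pltp is opposite to that of Ctsa, and how many reads of Ctsa its level holds was not tested.

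Apod encodes a secreted lipocalin that binds arachidonic acid and other small lipids and is made in the brain by oligodendrocytes and cells around vessels. Apod (chromosome 16, 31296192 to 31314808, minus strand) was at 1.27 and 0.840 RPKM in AnnexinV-positive and 92.5 and 43.6 in AnnexinV-negative libraries. It was read with about 324 and 186 reads in the first and 28625 and 10895 reads in the second. The living-cell libraries differed by more than 2-fold from each other, yet the lower of them was far above both dying-cell libraries. The ratio of means was 64.4 with AnnexinV-negative higher, and the change of Apod was -5.81 on the deposited log2 scale (SE 0.37, limma adjusted p 2.70e-04). It was the 10th lowest of 10927 fold changes. On the TPM and microglia-centred scales the log2 fold changes of Apod were -6.54 and -6.98 (limma adjusted p 9.46e-05 and 7.16e-04).

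Markers of several other cell types fell beside Apod, while 9.26% of all genes tested were called lower. Many of these markers reached an RPKM of 1 in AnnexinV-negative libraries only, so they entered the test only through the group where they are high. Of the mature oligodendrocyte markers 15 of 15 were called lower, with a median log2 fold change of -4.61, and of the mural cell and fibroblast markers 4 of 5 tested, with a median of -3.09. The summed RPKM of the mural cell and fibroblast list was 14.8 and 7.09 in AnnexinV-positive and 68.0 and 55.8 in AnnexinV-negative libraries, and Anpep, Dcn, Col1a1, Col1a2 and Lum stayed under 1 RPKM in each library. Of the oligodendrocyte precursor markers 6 of 7 tested were called lower, with sums of 20.8 and 18.4 against 162 and 129 RPKM. For endothelial markers 7 of 8 tested were called lower, with sums of 7.33 and 11.0 against 42.6 and 42.7. With an RPKM of at least 1 required in all 4 libraries, 322 of 8733 genes were called lower. Among them were 5 of 5 oligodendrocyte, 2 of 3 precursor, 1 of 2 mural and fibroblast and 1 of 2 endothelial markers. Apod itself was not tested there. The part of these cells in the fall of Apod was not tested. By profile over the 4 libraries, the gene nearest to Apod was the myelin gene Mog, at a root mean square distance of 0.17 on the log2 scale.

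Clu encodes clusterin, also called apolipoprotein J, a secreted chaperone that astrocytes and ependymal cells make. Clu (chromosome 14, 65968483 to 65981547, plus strand) was at 31.0 and 25.3 RPKM in AnnexinV-positive and 62.3 and 28.4 in AnnexinV-negative libraries. AnnexinV-negative library 1 stood apart, library 2 lay within the range of the dying cells, and the groups overlapped. The change of -0.59 did not pass (SE 0.36, limma adjusted p 0.216, 95% interval -1.43 to 0.26). It passed at -1.36 (limma adjusted p 0.0362) on the TPM scale and at -1.76 (limma adjusted p 0.0213) when centred on microglia markers. Without AnnexinV-negative library 2 it was -1.15 (limma adjusted p 0.00563), and without AnnexinV-negative library 1 it was -0.018 (limma adjusted p 0.954).

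Of the astrocyte markers 9 of 11 tested were called lower on the deposited scale, against 9.26% of all genes. With an RPKM of at least 1 required in all 4 libraries they were 7 of 9, against 322 of 8733 genes. The astrocyte list summed to 38.3 and 58.7 RPKM in AnnexinV-positive and 124 and 88.0 in AnnexinV-negative libraries. The ependymal and choroid plexus list, with 0 of 6 tested members called by limma (0 also at an unadjusted p under 0.05, but 4 of 6 higher without AnnexinV-negative library 1, where the median was 1.87, against -0.89 without AnnexinV-negative library 2), summed to 523 and 527 RPKM in library 1 of each group and to 76.1 and 61.4 in library 2, and Clu was higher in library 1 of each group as well. For both lists the part in the value of Clu was not tested. Of the ependymal and choroid plexus list Ccdc153, Tmem212 and Aqp1 stayed under 1 RPKM in each library, and Foxj1 and Rsph1 reached at most 1.11 and 1.32 RPKM. Most of the sum came from Ttr and Enpp2. Ttr, a choroid plexus transcript, was at 383 and 54.2 RPKM in AnnexinV-positive and 359.7 and 18.4 in AnnexinV-negative libraries. Enpp2 was at 115 and 15.6 against 145 and 39.7 RPKM.

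**Figure D4:**
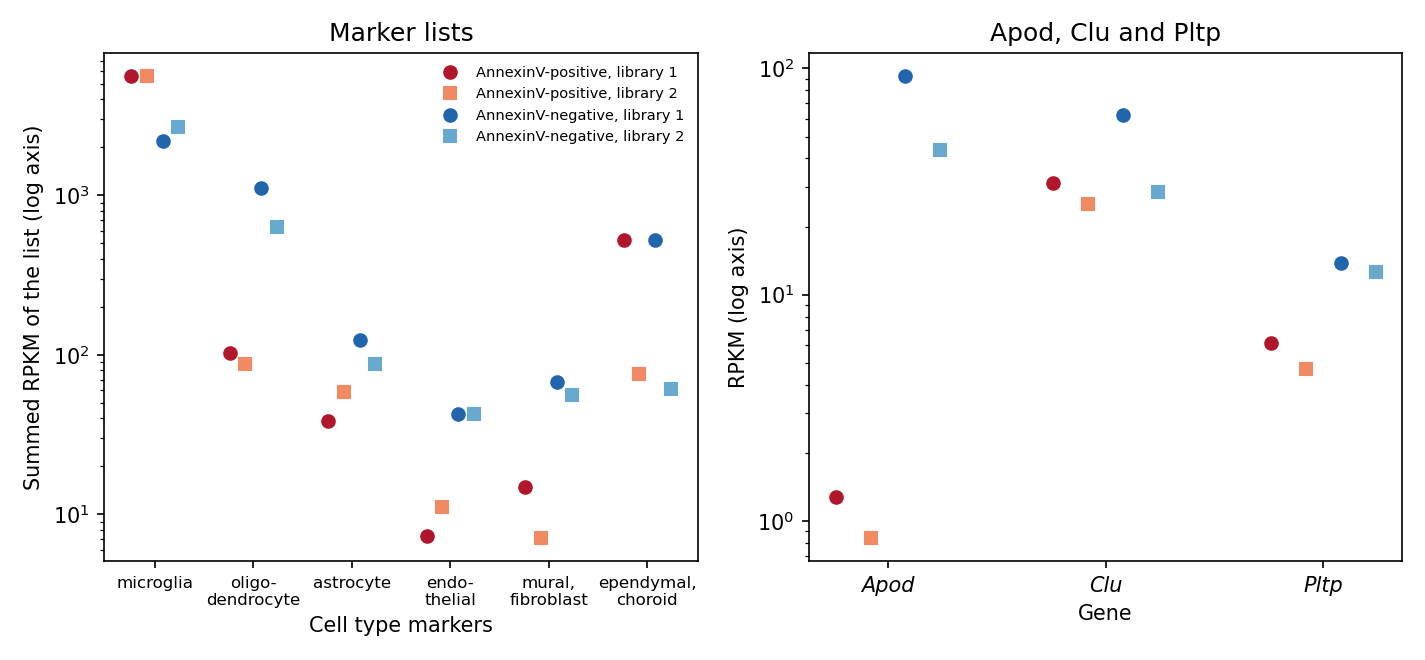
Left, summed RPKM of 6 marker lists in each library (log axis); right, RPKM of Apod, Clu and Pltp in the same libraries (log axis). The oligodendrocyte sum is 87.9 to 103 in AnnexinV-positive and 631 to 1122 in AnnexinV-negative libraries, while the ependymal and choroid sum follows the library number (523 and 527 in library 1, 76.1 and 61.4 in library 2).

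A ratio between genes of the same library does not depend on the scale set between libraries. Apoe made up 96.6% and 97.0% of the summed RPKM of the list in AnnexinV-positive and 92.1% and 93.7% in AnnexinV-negative libraries. Per 1000 RPKM of Apoe, Apoc1 stood at 2.92 and 3.37 in AnnexinV-positive and 3.25 and 2.74 in AnnexinV-negative libraries. Apoc4 stood at 0.474 and 0.854 against 0.744 and 0.795, and Abca1 at 5.52 and 2.93 against 4.79 and 7.76. For Apoc1, Apoc4, Lpl and Abca1 the ratios overlapped between groups.

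For the other 4 of 8 genes the ratio to Apoe was lower in both AnnexinV-positive libraries than in either AnnexinV-negative library, as it was for 91.2% of all other genes tested, while 0.183% of those were higher without overlap. Since nearly every gene was lower relative to Apoe, the count says little about these 4. The log2 difference of the ratio was -0.94 for Abcg1, -2.18 for Clu, -2.89 for Pltp and -7.53 for Apod. Clu went from 19.3 and 8.77 per 1000 of Apoe in the living to 3.36 and 2.46 in the dying cells. Pltp went from 4.28 and 3.88 to 0.661 and 0.458. With 2 libraries against 2, an exact permutation test cannot give a p below 0.333, so these ratios are given without a test.

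**Figure D5:**
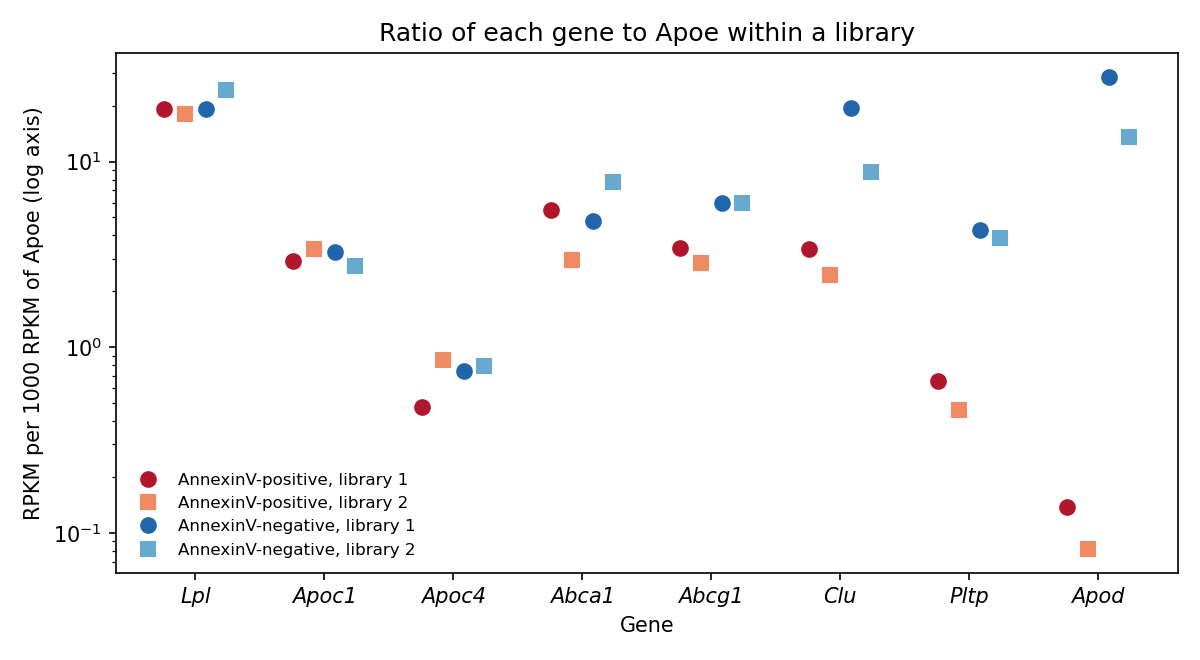
RPKM of 8 genes per 1000 RPKM of Apoe in the same library (log axis), with AnnexinV-positive libraries in red tones and AnnexinV-negative in blue tones. Lpl, Apoc1, Apoc4 and Abca1 overlap between groups, while Abcg1, Clu, Pltp and Apod are lower in both AnnexinV-positive libraries.

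The order of levels per gene length also differed between groups. In AnnexinV-positive libraries Apoe was followed by Lpl at 181 ± 5.79 RPKM (SD, n = 2), then Abca1 (40.5 ± 14.7), Apoc1 (30.8 ± 5.41), Abcg1 (30.6 ± 1.72) and Clu (28.1 ± 4.09). Neighbours among these last 4 overlapped in their ranges. Apoc4 (6.57 ± 3.10) and Pltp (5.40 ± 0.991) overlapped as well, above Apod (1.06 ± 0.306). In AnnexinV-negative libraries Lpl (70.2 ± 12.2), Apod (68.1 ± 34.5) and Clu (45.3 ± 24.0) followed Apoe, and each overlapped with the next. Abca1 (20.3 ± 6.85) and Abcg1 (19.4 ± 0.0513) overlapped there, followed by Pltp (13.2 ± 0.888), Apoc1 (9.68 ± 1.15) and Apoc4 (2.48 ± 0.122) with separate ranges. Apod thus stood at place 3 in the living and at place 9 in the dying cells.

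Other genes of lipid transport were counted from lists named for their function. Beside them, 30.8% of all genes tested were called higher and 9.26% lower on the deposited scale, and 1.04% and 19.3% on the TPM scale. Of 15 lipoprotein receptors and their partners, 12 were tested, and 5 rose and 2 fell on the deposited scale (median 0.63). On the TPM scale 0 were higher by limma (0 also at an unadjusted p under 0.05) and 2 lower, with a median of -0.14. Among these, Mylip, the ligase that degrades the LDL receptor and is itself an LXR target, was at 43.4 and 39.5 against 15.5 and 21.2 RPKM and rose by 1.19 (SE 0.21, limma adjusted p 0.00655) on the deposited scale, with 0.41 on the TPM scale (limma adjusted p 0.216). The apolipoprotein E receptors Lrp8 and Vldlr fell, with log2 fold changes of -1.69 and -1.78 (limma adjusted p 0.00516 and 0.00590) on the deposited scale and -2.37 and -2.45 (limma adjusted p 0.00120 and 0.00157) on the TPM scale. Lrp8 was the gene of the list with the smallest p among those that fell, and Vldlr, also called, was named after its values were seen. Both reached an RPKM of 1 in AnnexinV-negative libraries only, so they entered the test only through the group where they are high. Among the 9 receptors with an RPKM of at least 1 in all 4 libraries limma called 5 higher and 0 lower. Of all 8733 genes under that filter, 3204 were called higher and 322 lower. Their levels were low, with Lrp8 at 0.519 and 0.441 against 1.63 and 1.92 RPKM and Vldlr at 0.548 and 0.345 against 1.76 and 1.74.

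Of 14 further ABC transporters of lipids, 10 were tested, and 4 rose and 1 fell on the deposited scale (median 0.60), against 0 (0 also at an unadjusted p under 0.05) and 2 on the TPM scale by limma (median -0.16). Abca5, a lysosomal transporter, fell, with log2 fold changes of -1.44 (SE 0.32, limma adjusted p 0.0131) on the deposited and -2.09 (limma adjusted p 0.00383) on the TPM scale. It was at 0.466 and 0.318 against 1.14 and 1.31 RPKM and so was tested only through the AnnexinV-negative libraries. Among the 8 transporters with an RPKM of at least 1 in all 4 libraries limma called 3 higher and 0 lower. Beside them, 3204 of 8733 genes under that filter were called higher and 322 lower. Of 10 LXR and RXR receptors and cofactors, 9 were tested, and 4 rose and 0 fell on the deposited scale (median 0.62). On the TPM scale limma called 0 in either direction (median -0.15), while at an unadjusted p under 0.05 there were 0 higher and 3 lower, and on the deposited scale 5 and 0. The receptor partner Rxrg rose by 1.26 (SE 0.28, limma adjusted p 0.0135) on the deposited scale and was at 0.56 on the TPM scale (limma adjusted p 0.185). At 1.35 and 1.49 against 0.594 and 0.481 RPKM, Rxrg was tested only through the AnnexinV-positive libraries. Nr1h3, which encodes LXR alpha, stayed under 1 RPKM in each library and was not tested, while Nr1h2, which encodes LXR beta, was at 17.9 and 19.6 against 14.7 and 14.9 RPKM (0.34, limma adjusted p 0.151).

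Of 12 lipases and their partners, 8 were tested, and 6 rose and 0 fell on the deposited scale (median 0.72). The shares of all genes tested were 30.8% and 9.26% there. On the TPM scale limma called 0 higher and 1 lower (median -0.03), and at an unadjusted p under 0.05 the counts were the same as these on both scales. Lipa, the lysosomal acid lipase, rose by 0.98 (SE 0.21, limma adjusted p 0.0123) on the deposited scale and was at 0.20 on the TPM scale (limma adjusted p 0.513). Of 15 other apolipoproteins and lipid carriers, 14 were found by symbol and 10 stayed under 1 RPKM in each library (Apoa1, Apoa2, Apoa4, Apob, Apoc3, Apof, Apoh, Apom, Apol6 and Rbp4). Mttp, which loads lipid onto apolipoprotein B, reached 1.12 RPKM in AnnexinV-positive library 1 and lay at 0.558 to 0.621 in the others, so it was not tested. Of 3 tested genes, Apobr, a macrophage receptor for lipoproteins, rose by 1.08 (SE 0.27, limma adjusted p 0.0200) on the deposited scale and was at 0.32 on the TPM scale (limma adjusted p 0.416). Lcat, which esterifies cholesterol on particles and in the brain comes from astrocytes, fell, with log2 fold changes of -1.45 (SE 0.41, limma adjusted p 0.0306) on the deposited and -2.16 (limma adjusted p 0.00878) on the TPM scale. At 0.558 and 0.987 against 3.22 and 1.51 RPKM, Lcat was tested only through the AnnexinV-negative libraries. Ptgds, a lipocalin that makes prostaglandin D, was at 8.72 and 1.63 against 36.0 and 10.3 RPKM and did not pass on the deposited scale (-2.31, limma adjusted p 0.0587), though it did on the TPM scale (-3.06, limma adjusted p 0.0392). Centred on microglia markers, limma called 0 genes of these 5 lists higher (0 also at an unadjusted p under 0.05). Lower on that scale were 5 of 12 tested receptors, 4 of 10 ABC transporters and 4 of 9 LXR and RXR genes. So were 2 of 8 lipase genes and 2 of 3 other carriers, against 50.7% of all genes tested.

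For each of the 9 tested genes the other genes with the nearest profile over the 4 libraries were found by the root mean square distance of log2 values. Nearest to Apoe were Tk1, a thymidine kinase, and C1qb, a complement subunit of microglia, at distances of 0.024 and 0.054. Cxcl10 and Scimp were nearest to Apoc1, Guca1a and Tnni2 to Apoc4, and Pld3 and Tgfb1 to Lpl. For Abca1 they were Lnpep and Dock4, for Abcg1 Eea1 and Smad1, for Pltp Usp6nl and Maoa, for Clu Ccpg1os and Fbxo36, and for Apod Mog and Slain1. With 4 libraries such profiles are easily matched: 492 genes lay within 0.1 of Abcg1 and 171 within 0.1 of Lpl, against 35 for Apoe and 0 for Apod.

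Replicates differed with gene length. Among 1501 tested genes with under 1.5 kb of exons, the median log2 difference of library 1 minus library 2 was -0.36 in AnnexinV-positive and 0.54 in AnnexinV-negative cells, and among 3139 genes of 6 kb and over it was 0.11 and -0.22. Apoc1, with 744 exon bases, differed by -0.36 and 0.24, and Abca1, with 10363, by 0.76 and -0.70, so both had the sign of their length class in each group. Lpl is as long as Abca1 but differed by -0.07 and -0.36. The median change between groups was 0.59 for the short and 0.40 for the long genes on the deposited scale. The part of length in the spread of Abca1 and Apoc1 was not tested.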

How the data were processed

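RNA of sorted cells was measured in 4 libraries, and titles gave the groups (2 libraries each). Per the labels' protocols, the TruSeq v2 kit was used, which keeps no strand. The submitters' processing notes name GSNAP and mm10. Counter and annotation were not given in the sources used here. The deposited values have no named unit and were read as RPKM: with exonic lengths from GENCODE vM21 (GRCm38, the assembly of mm10), 79.6% to 83.6% of values under 100 reads fell within 0.01 of a whole read. Depths found this way are estimates, and the authors' rescaling between libraries is not known. Symbols matched for 52403 of 52636 genes.

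Fits used limma 3.58.1 (R 4.3.3), with a trend on intensity, on log2(RPKM + 0.1), over the 10927 genes that reached an RPKM of 1 in 2 or more libraries. Benjamini-Hochberg adjusted p under 0.05 was called. Such fold changes understate the change of low genes. On the TPM scale the pseudocount was scaled with the values. Beside the 10 genes, the text names the called gene of smallest p in each direction of a pathway list, a whole list where 3 or fewer were called, and the 2 genes nearest in profile. A gene that this rule names is not reported here. Ctsa, Ctsd, Gm44805, Nr1h2, Nr1h3, Vldlr, Ttr, Enpp2, Foxj1 and Rsph1 were named after their values were seen. So were Cspg4, Pdgfra, Tnr, Vcan, Olig1, Olig2, Sox10, Mrc1, Cbr2 and F13a1. The members and lists were chosen with earlier results of these data known. Alternatives were other pseudocounts, filters and scales, no trend, a replicate block and leaving out each library.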

Additional observations from a re-analysis of the deposited data

How the results depend on the processing

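Apod and Pltp stayed lower past the threshold under each alternative that tested them (17 for Apod, which missed the strictest filter, and 18 for Pltp). Apoe, Apoc1 and Lpl kept their direction under all 18, with log2 fold changes of 0.29 to 1.67, 0.23 to 1.83 and 0.15 to 1.55, and missed the threshold under 5, 4 and 6 of them. These were the microglia-centred fits, in which Apoc1 passed only without AnnexinV-negative library 1, and for Lpl also the TPM scale. Clu kept its direction and passed under 5 of 18. Abca1 and Abcg1 lost the call or turned under 11 of 18 each and Apoc4 under 9, among them no filter (limma adjusted p 0.116, 0.0573 and 0.0632) and centring on the median gene (0.201, 0.204 and 0.0715), and Abca1 also with no intensity trend (0.0651). The genes higher and lower numbered 3364 and 1012, and 1865 and 2489 with no filter, 1133 higher when centred on the median gene, 322 lower with an RPKM of at least 1 in all 4 libraries, 114 and 2105 on the TPM scale, and 13 and 5535 when centred on microglia markers. Without 1 library, 1297 to 3356 were higher (1749 without AnnexinV-positive library 1 and 1297 without library 2) and 787 to 1060 lower, and centred on microglia markers as well, 0, 3, 117 and 15 higher and 1688, 1842, 4848 and 7059 lower (without AnnexinV-positive library 1 or 2 and AnnexinV-negative library 1 or 2). Members higher numbered 6, and 5 with no intensity trend, 3 with no filter, 3 centred on the median gene, 2 on the TPM scale and 0 centred on microglia markers. Leaving out either AnnexinV-positive library or AnnexinV-negative library 1 also lowered the count of members higher on the deposited scale. Leaving out AnnexinV-negative library 2 raised the count of members lower there. Members lower numbered 2, and 1 with the strictest filter, 3 on the TPM scale and 3 centred on microglia markers. Abca1 turned to -0.19 and Abcg1 to -0.53 when centred on microglia markers, and Abcg1 to -0.12 on the TPM scale. Leaving out 1 library on the microglia-centred scale, which was chosen after seeing the data, gave -0.55 to 0.17 for Abca1, -0.65 to -0.40 for Abcg1 and -0.40 to 0.62 for Apoc4, with single reversed values of -0.55 and -0.41 for Abca1 and -0.56, -0.49, -0.40 and -0.65 for Abcg1. For the values with all libraries the scale alone differs; for the others the cause was not tested. Ratios to Apoe were recomputed without each library and with a pseudocount. The log2 difference of the ratio ran from -0.05 to 0.20 for Apoc1, from -0.70 to 0.15 for Apoc4 and from -1.06 to -0.14 for Abca1, and stayed below 0 for the other 5. A replicate block gave 2443 higher and 957 lower genes, with 5 and 2 members, and ended the call of Abcg1 (limma adjusted p 0.0755). The labels do not say that numbers pair libraries, and deviations of libraries with the same number correlated at -0.21 over genes. A crossed block, added after seeing the data, gave 4891 higher and 1136 lower genes, with 6 and 2 members. Apoc2, at 0 or 1 read, is the member near the floor, and whether depth or its shared exon bases limit it was not tested.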
